A study of Mus musculus with 12 samples.

Results

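The Gadd45 family comprises Gadd45a, Gadd45b and Gadd45g, selected on their gene symbols in a table of raw counts of 55376 symbols, and all 3 members were present and were among the 17716 genes that passed the filter on low values. The family was proposed with results of these same samples known, so the values of the members are given as a description, and the adjusted p of a member tells its place among all genes tested. RNA-Seq was performed on 12 samples of live single cells sorted from mouse brain at postnatal day 40 as O1+ and CD45-, O1 being a surface lipid of differentiating oligodendrocytes and CD45 a leukocyte marker. Each sample contained the cells of 2 brains of C57BL/6 mice, and samples were separate pools of animals.

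There were 4 samples of wild-type (WT) mice, numbered 1, 3, 5 and 6, labelled wild-type without further detail of alleles. There were 4 samples of Cnp-Cre Jab1fl/fl mice, numbered 1 to 4, in which both copies of Jab1 (gene symbol Cops5, the catalytic subunit of the COP9 signalosome) are floxed and a Cre recombinase is placed under the promoter of Cnp. The Cnp promoter is active in late oligodendrocyte progenitors and in oligodendrocytes, so other cell types of these brains are not the intended target of the deletion. There were 4 samples of Cnp-Cre Jab1fl/fl p21CIP1-/- mice, here called double mutants and numbered 1, 2, 3 and 5, which by their label carry the same floxed alleles and Cre and in addition a p21CIP1-/- genotype (gene symbol Cdkn1a, an inhibitor of cyclin-dependent kinases). All 3 groups had the same age and strain, and no p21CIP1-/- group with intact Jab1 was among the samples.

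GADD45 proteins (growth arrest and DNA damage inducible) are small acidic nuclear and cytoplasmic proteins without a known enzymatic activity that act by binding partners. They bind MTK1 (gene symbol Map3k4) and so activate the p38 and JNK stress kinases, they bind p21, PCNA and CDK1 and can hold cells at the G2/M border, and they recruit excision repair and demethylating enzymes to DNA. The genes are induced by different signals: Gadd45a is a p53 target and is also induced through ATF4, Gadd45b is a target of NF-kB and of TGF-beta signalling and an immediate early gene of neurons, and Gadd45g is induced by cytokines.

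The members lie on 3 chromosomes of GRCm38. Gadd45a (ENSMUSG00000036390.8) is at chr6:67035096-67037457 on the minus strand, Gadd45b (ENSMUSG00000015312.9) at chr10:80930073-80932204 on the plus strand and Gadd45g (ENSMUSG00000021453.2) at chr13:51846678-51848468 on the plus strand. The longest transcript of each had 4 exons in the GENCODE M21 annotation, and the coding sequence spanned 495 bases in Gadd45a, 480 in Gadd45b and 477 in Gadd45g. Exon 2, which is coding, had a length of 102 bases in all 3 genes and is printed below from the annotated transcripts, since it shows how far the members can be told apart by their reads. Capitals mark the 49 of 102 positions (48.0%) at which the 3 genes have the same base.
Gadd45a exon 2 (chr6:67037010-67037111, minus strand): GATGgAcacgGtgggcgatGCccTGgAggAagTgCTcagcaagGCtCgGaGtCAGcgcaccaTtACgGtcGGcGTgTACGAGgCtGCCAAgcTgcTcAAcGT
Gadd45b exon 2 (chr10:80930448-80930549, plus strand): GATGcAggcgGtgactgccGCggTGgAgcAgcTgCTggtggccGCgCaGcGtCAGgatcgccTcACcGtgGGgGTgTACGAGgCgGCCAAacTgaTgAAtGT
Gadd45g exon 2 (chr13:51847352-51847453, plus strand): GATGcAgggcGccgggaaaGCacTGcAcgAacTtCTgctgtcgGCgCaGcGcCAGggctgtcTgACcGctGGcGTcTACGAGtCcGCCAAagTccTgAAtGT

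In exon 2, Gadd45b and Gadd45g had the same base at 67 positions (65.7%), Gadd45a and Gadd45b at 64 (62.7%) and Gadd45a and Gadd45g at 60 (58.8%). Over the whole length of the longest transcripts, the longest run of identical bases was 17 between Gadd45a and Gadd45g, 14 between Gadd45b and Gadd45g and 13 between Gadd45a and Gadd45b. A read of more than 17 bases from one of these transcripts therefore has no perfect match in another. Gadd45b and Gadd45g overlapped no other annotated gene. Gadd45a overlapped the noncoding transcript gene E230016M11Rik on the opposite strand (chr6:67036599-67080654) over 859 bases. Exons of E230016M11Rik cover 238 of the 1223 exonic bases of Gadd45a (19.5%). Counting by strand is not given in the sources used here, and reads from that stretch cannot be told apart.

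The bases before each start site are also shown, so that the elements present in each member can be compared. They are printed from RefSeq (GRCm38.p6), end before the first base of any annotated transcript, and carry in capitals the TATA box TATAAA, the CCAAT box, the E-box CACGTG, the octamer core TTTGCAT and the core of the composite element bound by ATF4, TGATGNAA, each searched on both strands. These elements were picked after the promoters had been read.
Gadd45a promoter (chr6:67037458-67037657, minus strand): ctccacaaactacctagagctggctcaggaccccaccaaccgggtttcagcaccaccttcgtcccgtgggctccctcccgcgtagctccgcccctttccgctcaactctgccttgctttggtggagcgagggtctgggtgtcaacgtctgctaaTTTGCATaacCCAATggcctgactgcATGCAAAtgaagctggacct
Gadd45b promoter (chr10:80929841-80930072, plus strand): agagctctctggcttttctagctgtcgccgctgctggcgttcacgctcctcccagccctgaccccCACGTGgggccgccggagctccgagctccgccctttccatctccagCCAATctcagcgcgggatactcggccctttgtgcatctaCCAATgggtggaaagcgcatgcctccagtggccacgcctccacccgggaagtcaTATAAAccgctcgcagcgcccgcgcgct
Gadd45g promoter (chr13:51846425-51846674, plus strand): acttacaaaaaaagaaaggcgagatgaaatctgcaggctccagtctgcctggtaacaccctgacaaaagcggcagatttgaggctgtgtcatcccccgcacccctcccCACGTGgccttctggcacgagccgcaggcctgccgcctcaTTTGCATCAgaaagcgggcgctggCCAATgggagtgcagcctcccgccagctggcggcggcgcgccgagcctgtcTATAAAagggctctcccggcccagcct

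A CCAAT box was found in all 3 windows, once in Gadd45a and Gadd45g and in 2 copies in Gadd45b. Among 32851 RefSeq promoters, 28.4% held a CCAAT in the window of 200 bases used for Gadd45a, 32.4% in the 232 bases used for Gadd45b and 33.8% in the 250 bases used for Gadd45g. The octamer core was found in 2 copies in Gadd45a, 1 on each strand, where 3.45% of promoters held at least 1, and in 1 copy in Gadd45g, where 4.12% held it. It was not found in the window of Gadd45b. TATAAA and CACGTG were each found once in Gadd45b, in windows of which 11.9% and 5.41% of promoters held them, and once in Gadd45g, with 12.4% and 6.02%. The 8 letters TGATGNAA were found in Gadd45g alone, on the minus strand and overlapping the octamer core, and in 3.45% of promoters. The GC box GGGCGG, in 24.6% and 30.1% of promoters, was found once each in Gadd45a and Gadd45b. The AP-1 element TGANTCA, the NF-kB site, the p53 half-site and the CArG box were in none of the 3 windows, which says only that these letters are not in these bases.

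Sequencing depth was 61485556 to 153495112 counts per sample, and every value of a member rested on at least 343 counts. Markers of mature oligodendrocytes (12 genes) summed to 41149 to 99536 CPM (counts scaled to library size, here with TMM factors) in WT samples, 9099 to 34911 in Cnp-Cre Jab1fl/fl and 16632 to 52715 in double mutants. Astrocyte markers were present in every sample, at 3438 to 13042 CPM, so the samples held astrocyte transcripts besides those of oligodendrocytes. Markers of microglia (20 genes) summed to 149 to 361 CPM in WT, 1375 to 3507 for Cnp-Cre Jab1fl/fl and 530 to 23264 in double mutants, the highest value being that of double mutant 3, which stood apart. Cops5 was at 103 ± 39.7 CPM in WT, 66.9 ± 18.0 in Cnp-Cre Jab1fl/fl and 58.6 ± 21.5 in double mutants (mean ± SD, n = 4 each). It was not called in edgeR in either mutant genotype against WT (-0.62 with adjusted p = 0.349 and -0.82 with adjusted p = 0.424), and WT 3, at 46.3 CPM, lay below 3 of 4 samples of each mutant genotype, so that Cops5 does not separate the labels in every library. Cdkn1a was at 41.6 ± 31.4 CPM in WT, 452 ± 124 in Cnp-Cre Jab1fl/fl and 88.4 ± 17.9 in double mutants. The double mutants, at 64.7 to 103 CPM, thus lay below all Cnp-Cre Jab1fl/fl samples (379 to 637 CPM) but not below WT (16.0 to 85.3 CPM), with a difference from WT of 1.08 on the log2 scale (edgeR adjusted p = 0.394). Counts over the whole gene do not show which of its exons were read, so these values do not test the p21CIP1-/- label. Double mutant here means the libraries labelled so. In bulk samples, fewer cells of a type and less RNA per cell cannot be told apart.

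Gadd45b was the member with the largest difference between WT and both mutant genotypes. In WT it was measured at 9.44, 3.61, 3.98 and 5.56 CPM in samples 1, 3, 5 and 6. In Cnp-Cre Jab1fl/fl it was at 35.2, 123.8, 65.4 and 97.8 CPM in samples 1 to 4. In double mutants it was at 130.0, 112.5, 46.9 and 45.8 CPM in samples 1, 2, 3 and 5. All 8 mutant samples lay above all 4 WT samples, and the lowest Cnp-Cre Jab1fl/fl sample was at 3.73 times the highest WT sample and the lowest double mutant at 4.85 times. Taken separately, all Cnp-Cre Jab1fl/fl samples lay above all WT samples for 9.90% of all genes tested, and all double mutants for 4.52%. The means of Gadd45b were 5.65 ± 2.67 CPM in WT, 80.6 ± 38.5 in Cnp-Cre Jab1fl/fl and 83.8 ± 43.8 in double mutants, which corresponds to ratios of 14.3 and 14.8 to WT. Within each mutant genotype the samples differed among themselves by a wide margin, and the samples of the 2 mutant genotypes covered nearly the same range.

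**Figure D1:**
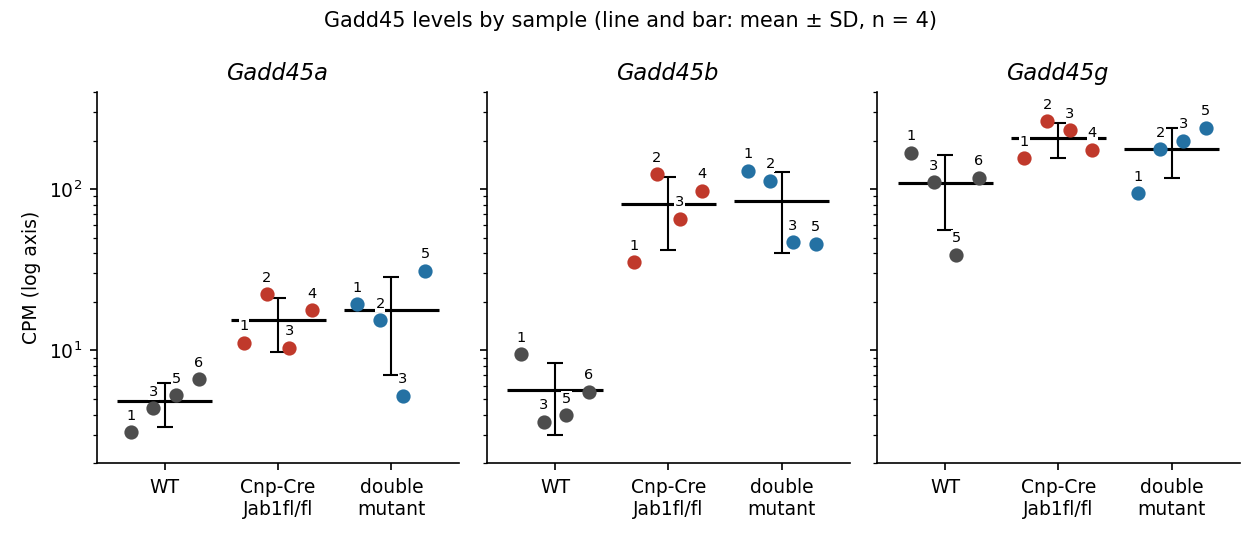
CPM of each Gadd45 gene (log axis) in the 4 samples of each genotype, with the replicate number at each point, the mean as a line and the SD as a bar. All mutant samples of Gadd45b sit above the WT samples, whereas double mutant 3 of Gadd45a, at 5.22 CPM, lies within the WT range and the Gadd45g values of the genotypes overlap.

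Gadd45a, the founding member and a p53 target, was at a level per length like that of Gadd45b in WT and below it in all mutant samples, and differed less between genotypes. In WT it was measured at 3.11, 4.37, 5.26 and 6.62 CPM in samples 1, 3, 5 and 6. In Cnp-Cre Jab1fl/fl it was at 11.2, 22.3, 10.4 and 17.7 CPM in samples 1 to 4, all above the WT samples. In double mutants it was at 19.3, 15.3, 5.22 and 31.2 CPM in samples 1, 2, 3 and 5. Of these, sample 3 lay within the WT range and sample 5 was the highest of all 12. The means were 4.84 ± 1.48 CPM in WT, 15.4 ± 5.65 in Cnp-Cre Jab1fl/fl and 17.8 ± 10.7 in double mutants, or 3.18 and 3.67 times WT. E230016M11Rik, which overlaps Gadd45a, was at 5.80 ± 2.02 CPM in WT, 3.25 ± 1.90 in Cnp-Cre Jab1fl/fl and 4.69 ± 2.70 in double mutants, the opposite order of means between WT and the mutants.

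Gadd45g, known as a cytokine-induced member, was the most abundant member. It was measured at 168, 111, 39.3 and 117 CPM in WT samples 1, 3, 5 and 6. It was at 155, 263, 232 and 176 CPM in Cnp-Cre Jab1fl/fl samples 1 to 4, and at 94.3, 177, 199 and 240 CPM in double mutants 1, 2, 3 and 5. The genotypes overlapped, since 3 of 4 samples in each mutant genotype lay above all WT samples and 1 did not. The means were 109 ± 53 CPM in WT, 206 ± 49.7 in Cnp-Cre Jab1fl/fl and 178 ± 61.3 in double mutants, or 1.90 and 1.63 times WT. WT 5 and double mutant 1, lowest in Gadd45g within their genotypes, were also lowest there in summed astrocyte markers (5457 and 3958 CPM). Cnp-Cre Jab1fl/fl sample 1 was lowest in Gadd45g and highest in astrocyte markers (8516 CPM) within its genotype. The part of astrocytes in the Gadd45g level was not tested.

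The first comparison addressed the effect of the deletion of Jab1 in oligodendrocytes. In edgeR's quasi-likelihood test of Cnp-Cre Jab1fl/fl against WT, Gadd45b was higher by 3.83 on the log2 scale (SE 0.49, adjusted p = 0.00197) and ranked 52nd by p among the genes tested. Gadd45a was higher by 1.67 (SE 0.49), which did not pass the threshold of 0.05 after Benjamini-Hochberg adjustment in edgeR (adjusted p = 0.0644), and Gadd45g differed by 0.92 (SE 0.40, adjusted p = 0.202). So 1 of 3 members was called higher and 0 lower, where 5.19% of all genes tested were called higher and 2.46% lower. All 4 mutant samples lay above all 4 WT samples for 2 of 3 members, and for 9.90% of all genes. By size of the difference alone, 2.67% of genes had a larger log2 fold change than Gadd45b, 12.2% a larger one than Gadd45a and 22.4% a larger one than Gadd45g. The call of Gadd45a depended on the test, since DESeq2 on the same 8 samples gave 1.66 with an adjusted p of 0.0120 and edgeR restricted to genes averaging 10 CPM or more gave 1.75 with an adjusted p of 0.0408.

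The second comparison set double mutants against the same WT samples. Gadd45b was higher by 3.88 on the log2 scale (SE 0.50, edgeR adjusted p = 0.0365), the 4th gene by p of all tested. Gadd45a differed by 1.86 (SE 0.57, edgeR adjusted p = 0.218) and Gadd45g by 0.70 (SE 0.44, edgeR adjusted p = 0.557). Of all genes tested, 0.175% were called higher and 0.0169% lower, so that the 1 call among 3 members stood against 31 calls higher among 17716 genes. The 4 double mutants lay above all WT samples for Gadd45b alone of the members and for 4.52% of all genes. The call of Gadd45b was lost without each of the 4 WT samples and without double mutant 2, with edgeR adjusted p between 0.0690 and 0.147 and log2 fold changes between 3.70 and 4.24. In DESeq2, Gadd45a passed the threshold here too, at 1.88 (adjusted p = 0.0305).

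The third comparison set double mutants against Cnp-Cre Jab1fl/fl, which differ in the p21CIP1 label. Gadd45b differed between double mutants and Cnp-Cre Jab1fl/fl by 0.06 on the log2 scale (SE 0.47), Gadd45a by 0.21 (SE 0.55) and Gadd45g by -0.22 (SE 0.34), with an adjusted p of 1 in edgeR for each. No gene was called in this comparison (0% higher and 0% lower, 885 genes at an unadjusted p under 0.05, and 87 genes called by DESeq2, no member among them), and the samples of double mutants lay above all samples of Cnp-Cre Jab1fl/fl for 1.22% of genes and for 0 of 3 members. These standard errors do not exclude changes of the order of 1 on the log2 scale in Gadd45a or Gadd45b. Cdkn1a itself was lower by 2.35 on the log2 scale (SE 0.32, edgeR adjusted p = 0.0916), and the sign of the small differences of the members turned in several alternative fits.

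**Figure D2:**
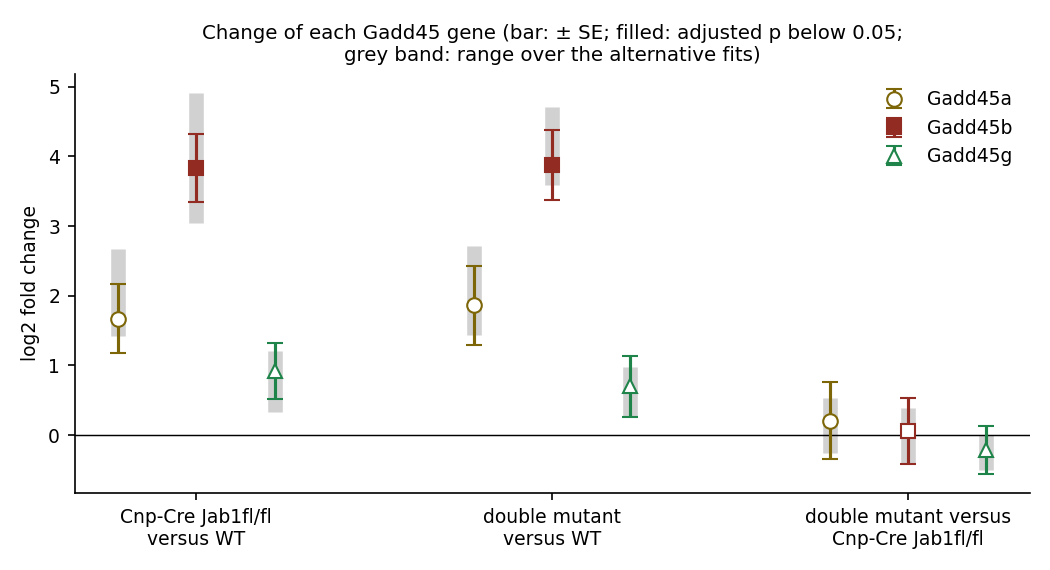
Log2 fold change of the Gadd45 genes in the 3 comparisons, with the SE as a bar, filled symbols where the edgeR adjusted p was below 0.05, and a grey band from the lowest to the highest value over the alternative fits. Gadd45b stands at 3.83 and 3.88 against WT with bands that stay above 3, and all 3 members lie near 0 between the mutant genotypes.

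To compare levels between the members, CPM were divided by the exonic length of each gene in kilobases, giving RPKM. In WT, Gadd45g was at 102 ± 49.5 RPKM, Gadd45b at 4.12 ± 1.94 and Gadd45a at 3.96 ± 1.21, so that Gadd45a and Gadd45b did not differ beyond their spread and both lay below Gadd45g in every sample. In Cnp-Cre Jab1fl/fl the order was Gadd45g at 193 ± 46.4 RPKM, Gadd45b at 58.7 ± 28.1 and Gadd45a at 12.6 ± 4.62, without overlap between neighbours. In double mutants Gadd45g was at 166 ± 57.2 RPKM, Gadd45b at 61.1 ± 31.9 and Gadd45a at 14.5 ± 8.78, and in double mutant 1 Gadd45b (94.8 RPKM) exceeded Gadd45g (88.0 RPKM). The sum of the 3 genes was 110 ± 50.4 RPKM in WT (range 43.9 to 166), 264 ± 71.9 in Cnp-Cre Jab1fl/fl (180 to 354) and 241 ± 37.3 in double mutants (199 to 283). The sums of the mutants therefore lay above those of all WT samples.

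Within this sum, the share of Gadd45g was 91.1 ± 5.10% in WT, 73.8 ± 7.38% in Cnp-Cre Jab1fl/fl and 67.5 ± 17.6% in double mutants. The share of Gadd45b was 4.13 ± 1.79% in WT (range 2.40 to 6.60), 21.4 ± 6.67% in Cnp-Cre Jab1fl/fl (14.3 to 28.5) and 26.6 ± 16.5% in double mutants (11.8 to 47.7), higher in all 8 mutant samples than in any WT sample. Gadd45a took 4.78 ± 3.56% in WT, 4.79 ± 1.16% in Cnp-Cre Jab1fl/fl and 5.93 ± 3.22% in double mutants, ranges that overlap. On the log2 scale, the ratio of Gadd45b to Gadd45g per length was -4.56 ± 0.68 in WT, -1.83 ± 0.61 in Cnp-Cre Jab1fl/fl and -1.52 ± 1.32 in double mutants, and the lowest mutant ratio (-2.74) lay above the highest WT ratio (-3.66). The ratio of Gadd45b to Gadd45a was 0.00 ± 0.96 in WT, 2.15 ± 0.45 in Cnp-Cre Jab1fl/fl and 2.17 ± 1.20 in double mutants, where sample 5, at 0.39, fell within the WT range. The members did not keep the same order of samples: double mutant 1 was the highest sample in Gadd45b and the lowest double mutant in Gadd45g, and double mutant 5 the highest double mutant in Gadd45a and Gadd45g and the lowest in Gadd45b. In Cnp-Cre Jab1fl/fl, sample 2 was the highest in all 3 members.

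**Figure D3:**
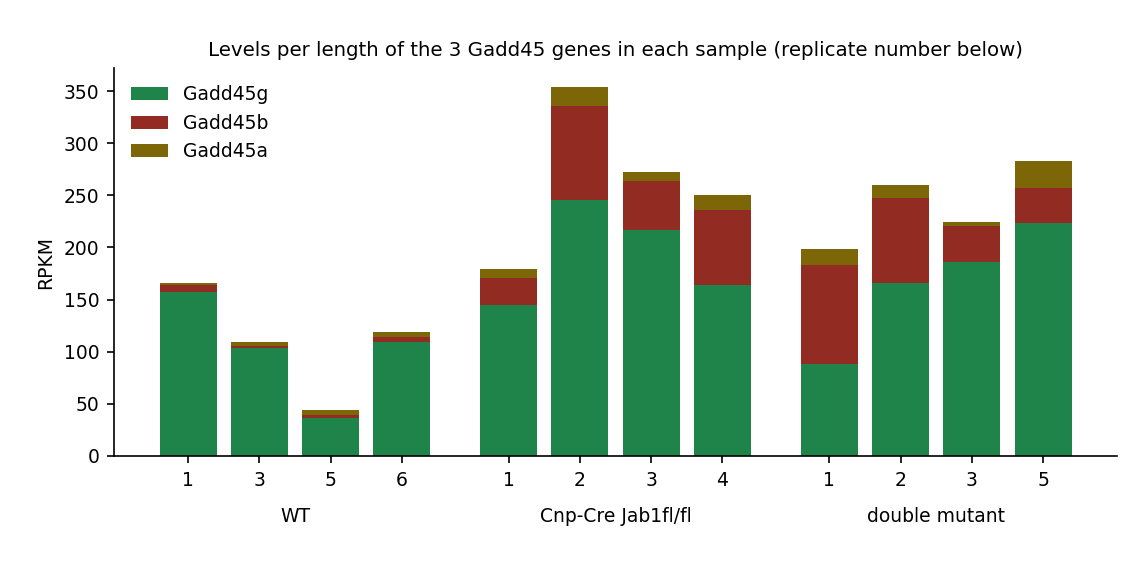
Levels per length (RPKM) of the 3 Gadd45 genes stacked for each of the 12 samples, with replicate numbers below the bars. Gadd45g makes up most of every bar except that of double mutant 1, in which Gadd45b takes 47.7%, and Gadd45b is barely visible in the WT samples.

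Since markers of other cell types moved with genotype, the values of the members are set beside them by sample. Double mutant 1 had the highest Gadd45b of all samples (130.0 CPM) and the lowest microglial markers of the 8 mutant samples (530 CPM), and in 6 of 12 marker lists its summed level was within the WT range, those of mature oligodendrocytes, endothelial cells, mural cells and neurons among them. Double mutant 3 had the highest microglial markers (23264 CPM), with Gadd45b at 46.9 CPM and the lowest Gadd45a of the mutants, 5.22 CPM. Gadd45b in double mutants was higher than in WT by 4.08 on the log2 scale without double mutant 3 (edgeR adjusted p = 0.0246). With the microglial marker level as a covariate over all 12 samples, Gadd45b was higher by 4.82 in Cnp-Cre Jab1fl/fl (edgeR adjusted p = 0.0117) and by 4.70 in double mutants (edgeR adjusted p = 0.00487), and with that of mature oligodendrocytes by 4.91 and 4.50. Gadd45a and Gadd45g did not pass the threshold in any of these covariate fits. Every Cnp-Cre Jab1fl/fl sample lay outside the WT range of both marker lists. So did every double mutant, except double mutant 1 in the mature oligodendrocyte list. Marker level thus went with genotype almost throughout, and the covariate fits cannot tell the effects of marker level and genotype apart. Choroid plexus markers (6 genes), at 298 to 4104 CPM in WT, were at 6500 to 24665 CPM in Cnp-Cre Jab1fl/fl and 5419 to 24062 CPM in double mutants. These sums are mostly Ttr, which made up 5289 of 5419 CPM in double mutant 1. As mean log2(CPM + 1) over the list, double mutant 1, at 5.61, lay within the WT range of 3.26 to 5.95. Endothelial markers (8 genes) were at 313 to 670 CPM in WT, 719 to 5019 for Cnp-Cre Jab1fl/fl and 614 to 4681 in double mutants. Markers of monocytes and neutrophils (6 genes) were at 1.21 to 3.51 CPM in WT samples, 51.7 to 129 in Cnp-Cre Jab1fl/fl and 8.15 to 183 in double mutants. In Cnp-Cre Jab1fl/fl these sums were mostly 1 gene, Csf3r, at 46.0 to 121 CPM beside 0 to 2.91 CPM in WT. S100a8 was at 0 in all samples of that genotype. All Cnp-Cre Jab1fl/fl samples lay above all WT samples for 19 of the 20 microglial markers, 4 of the 6 choroid plexus markers, 4 of the 8 endothelial markers and 1 of the 6 monocyte and neutrophil markers. Of all genes tested, 9.90% did so. For double mutants these numbers were 12, 1, 1 and 1 in the same order, beside 4.52% of all genes tested. In lists this short, a count of 1 cannot be set apart from these shares. The neutrophil gene S100a9 had 0 counts in all samples except double mutant 3. Markers of mural cells (7 genes), at 276 to 473 CPM in WT, were at 953 to 1690 CPM in Cnp-Cre Jab1fl/fl and 293 to 1632 CPM in double mutants. In Cnp-Cre Jab1fl/fl the mural sums were mostly Vtn, at 653 to 931 CPM. As mean log2(CPM + 1) over the mural list, Cnp-Cre Jab1fl/fl sample 2, at 4.47, lay within the WT range of 3.08 to 4.65. Markers of neurons (10 genes), at 77.7 to 169 CPM in WT, were at 174 to 387 CPM in Cnp-Cre Jab1fl/fl and 125 to 430 CPM in double mutants. Erythroid markers (5 genes), at 879 to 10884 CPM in WT, were at 5202 to 87996 CPM in Cnp-Cre Jab1fl/fl and 4309 to 22097 CPM in double mutants, ranges that overlap. The highest of these values was that of Cnp-Cre Jab1fl/fl sample 1. The part of the choroid plexus, endothelial, mural, neuronal, erythroid and monocyte and neutrophil lists in the result was not tested. That of the microglial and mature oligodendrocyte lists was not resolved by the covariate fits.

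**Figure D4:**
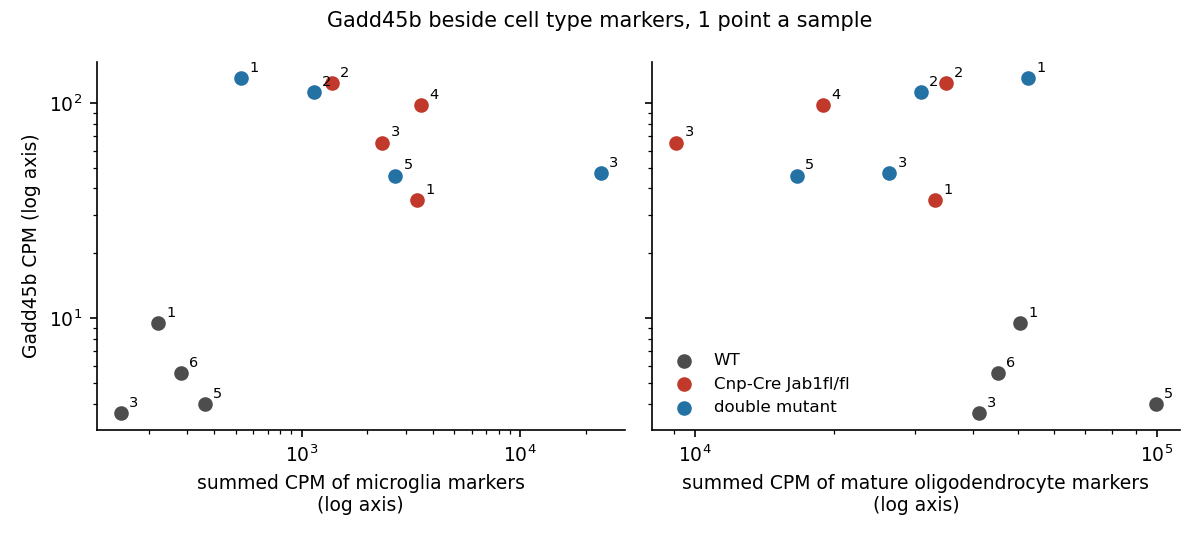
CPM of Gadd45b against the summed CPM of microglial markers (left) and of mature oligodendrocyte markers (right) on log axes, 1 point per sample with its replicate number. Double mutant 1 combines the highest Gadd45b with the lowest microglial markers of the mutant samples, and double mutant 3 lies far to the right on the left panel at 46.9 CPM.

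Genes that act with the family were read from lists of its partners, and their counts in Cnp-Cre Jab1fl/fl stand beside 5.19% of all genes called higher and 2.46% called lower. For the shorter lists, a count of 0 or 1 is near that background. In Cnp-Cre Jab1fl/fl, the 2 other genes of the GADD group were higher than in WT: Ppp1r15a (GADD34), which directs a phosphatase to eIF2alpha, by 2.39 on the log2 scale (SE 0.41, edgeR adjusted p = 0.00752), and Ddit3 (CHOP), a transcription factor of the unfolded protein response, by 2.30 (SE 0.47, edgeR adjusted p = 0.0158). Gadd45gip1, whose product binds GADD45 proteins, differed by 0.06 (SE 0.29). Of 12 stress kinases in the pathway below GADD45, 0 were called by edgeR in either direction, 1 had an unadjusted p under 0.05 and DESeq2 called 0, with a median log2 fold change of -0.25 beside 0.02 over all genes. Map3k4, which GADD45 proteins bind, was at 53.5 CPM in Cnp-Cre Jab1fl/fl and 49.5 CPM in WT. Of 5 cell cycle partners, Cdkn1a alone was called higher (3.44, SE 0.53, edgeR adjusted p = 0.00440), and Pcna differed by 0.16 (SE 0.36). Of 10 demethylation and repair partners, Tet1 alone was called, lower by 1.11 (SE 0.26, edgeR adjusted p = 0.0286), and it was not called in 6 of the fits that left out 1 sample.

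Among the genes that share regulators with the family, 2 of 15 tested transcription factors known to act on Gadd45 genes were called higher in Cnp-Cre Jab1fl/fl, with a list median of 0.35 on the log2 scale (13.3% of the list beside 5.19% of all genes). They were Cebpb (2.54, SE 0.48, edgeR adjusted p = 0.0110) and Trp53, which encodes p53 (1.06, SE 0.27, edgeR adjusted p = 0.0360). Of 19 tested p53 targets, 4 were called higher (21.1%), with a median of 0.49, and by adjusted p they were led by Cdkn1a, the death receptor gene Fas (2.26, SE 0.49, edgeR adjusted p = 0.0197) and the antiproliferative gene Btg2 (1.37, SE 0.32, edgeR adjusted p = 0.0286). Of 13 tested immediate early genes, 8 were called higher (61.5%), with a median of 1.48, led by Atf3 (7.66, SE 1.0), Klf4 (3.58, SE 0.55) and Ier2 (2.12, SE 0.39). Of 13 NF-kB targets, 2 were called higher (15.4%) with a median of 1.76, the apoptosis inhibitor Birc3 (2.73, SE 0.71, edgeR adjusted p = 0.0392) and the chemokine Ccl2, which had 0 counts in all WT samples and 3.18 ± 3.02 CPM in Cnp-Cre Jab1fl/fl. Against a floor of 3 counts per WT library, the mean of Ccl2 was at least 117-fold higher, with samples from 0.0807 to 6.27 CPM.

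Of 14 ATF4 targets of the integrated stress response, 7 were called higher (50.0%) and 2 lower (14.3%), with a median of 2.27. The list shares Ddit3, Ppp1r15a, Atf3 and Sesn2 with the lists above. Among those, Btg2 is both a p53 target and an immediate early gene, and Cdkn1a both a p53 target and a cell cycle partner. Egr1 is both a listed transcription factor and an immediate early gene, so the counts of the lists are not separate. By adjusted p they were led by Atf3, by Trib3 and by Nupr1 (2.58, SE 0.40, edgeR adjusted p = 0.00491). Trib3, a pseudokinase of the stress response, had 0 counts in all WT samples and was at 17.7 ± 16.0 CPM in Cnp-Cre Jab1fl/fl, at least 651-fold higher against the same floor and at least 371-fold without Cnp-Cre Jab1fl/fl 2, the highest sample. The 2 lower genes were those of serine synthesis, Psat1 (-2.0, SE 0.42, edgeR adjusted p = 0.0173) and Phgdh (-1.57, SE 0.39, edgeR adjusted p = 0.0334). The counts of called genes ranged, on leaving out each of the 8 samples in turn, from 6 to 8 for ATF4 targets called higher and 0 to 2 called lower, from 4 to 8 for immediate early genes, from 1 to 4 for NF-kB targets, from 1 to 3 for p53 targets and from 1 to 2 for transcription factors. The lists were chosen with results of these samples known, so their counts are no independent evidence of direction.

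**Figure D5:**
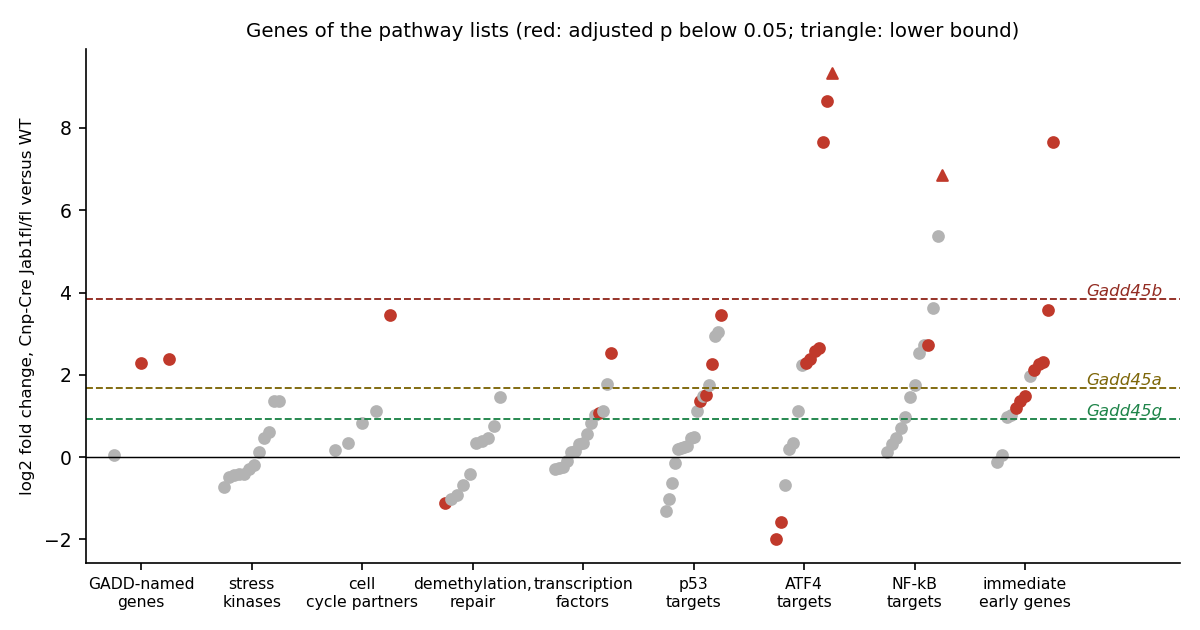
Log2 fold change of every tested gene of the 9 lists in Cnp-Cre Jab1fl/fl against WT, red where the edgeR adjusted p was below 0.05, triangles for the lower bounds of Trib3 and Ccl2, and dashed lines at the values of the Gadd45 genes. Red points number 7 higher and 2 lower of 14 among ATF4 targets, 8 of 13 among immediate early genes and 0 of 12 among stress kinases, where 5.19% of all genes were called higher and 2.46% lower.

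In double mutants against WT, 4 of 14 ATF4 targets were called higher (28.6%, beside 0.175% of all genes), with a median of 2.01 on the log2 scale, and by adjusted p they were led by Trib3, at 26.5 ± 8.10 CPM and at least 976-fold above the WT floor, and Asns, the asparagine synthetase gene (3.05, SE 0.36, edgeR adjusted p = 0.0275). Of the immediate early genes, Atf3 (7.39, SE 1.14) and Klf4 (2.99, SE 0.45) were called, both at an edgeR adjusted p of 0.0404, and of the NF-kB targets Ccl2, at 5.52 ± 5.40 CPM. In the other 6 lists, 0 genes were called by edgeR in this comparison. In those lists DESeq2 called 5 genes, Ddit3 (2.62), Ppp1r15a (2.31), Bbc3 (2.30), Trp53 (1.08) and Neil1 (-1.29). DESeq2 and edgeR with all 12 samples in one fit each called 7 ATF4 targets higher, and they called 6 and 4 immediate early genes. On leaving out each of the 8 samples in turn, edgeR called 1 to 5 ATF4 targets, 0 to 4 immediate early genes and 0 to 1 NF-kB targets. Between double mutants and Cnp-Cre Jab1fl/fl, edgeR called 0 genes of the 9 lists, and DESeq2 called Cdkn1a alone, at -2.34.

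The genes whose values ran most like those of each member over the 12 samples were ranked by the root mean square difference of log2(CPM + 1) after centring each gene on its own mean, a description in which likeness includes the difference between genotypes. For Gadd45b, the closest were Eif4ebp1, which encodes the translation repressor 4E-BP1 (0.49), Tnfrsf12a, the receptor of TWEAK (0.54), Npb, a neuropeptide gene (0.57), Mgp, the matrix Gla protein gene (0.61), and Fam178b (0.66). Eif4ebp1 was at 4.50 ± 2.11 CPM in WT, 45.4 ± 24.9 in Cnp-Cre Jab1fl/fl and 45.2 ± 9.21 in double mutants. Tnfrsf12a was at 4.68 ± 3.29, 36.1 ± 20.7 and 42.3 ± 19.2 CPM in the same order. Of all genes tested, 0.181% came within a difference of 1 of Gadd45b. A gene with constant values lies at a difference equal to the SD of the member's own profile. That SD was 1.79 for Gadd45b, 0.91 for Gadd45a and 0.72 for Gadd45g. Constant genes thus fall within 1 of Gadd45a and Gadd45g but not of Gadd45b. The shares given here and below therefore depend on the spread of each member and do not compare how common the profiles are.

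For Gadd45a, the closest were Map1b, a microtubule-associated protein gene (0.45), Arhgap28 (0.50), Flot1 (0.52), Resf1 (0.53) and Ccdc192 (0.54), and 27.2% of genes came within a difference of 1. Map1b was at 123 ± 18.0 CPM in WT, 353 ± 97.3 in Cnp-Cre Jab1fl/fl and 424 ± 114 in double mutants. For Gadd45g, the closest 4 were Dlgap4 (0.30), Pdlim4 (0.34), Fam181b (0.36) and Lmo4 (0.37), and 51.9% of genes came within a difference of 1. Over the 12 samples, Gadd45a ranged from 3.11 to 31.2 CPM, Gadd45g from 39.3 to 263 CPM and Gadd45b from 3.61 to 130.0 CPM. With a pseudocount of 0.1 instead of 1 CPM, 4 of the 5 genes nearest to Gadd45b, 3 of the 5 of Gadd45a and all 5 of Gadd45g were listed again. The genes of Gadd45a that dropped out were Arhgap28 and Ccdc192, at means of only 0.188 and 0.160 CPM in WT.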

How the data were processed

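Per the labels and the study's methods, RNA of sorted cells was amplified with a SMART-Seq v4 kit and sequenced as paired ends. The authors used Trimmomatic 0.32 for trimming, STAR 2.5.3a for alignment to GRCm38 and featureCounts with the basic GENCODE annotation of release M22 for counting. Raw counts for each gene symbol were deposited, neither normalized nor filtered. Whether strand or reads with several matches were used in counting is not given in the sources used here.

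The table names 12 samples, all mapped from their titles. Testing covered the 17716 genes that reached 1 CPM in 4 or more of the 12 samples. Comparisons used the quasi-likelihood test of edgeR 4.0.16 in R 4.3.3 with TMM factors on the counts of the 8 samples compared, with Benjamini-Hochberg adjustment over all genes tested and a threshold of 0.05. It was tested on simulated counts. The SE was taken as the log2 fold change divided by the square root of F. DESeq2 1.42.0, RLE and upper-quartile factors, other filters, all 12 samples in one fit, a replicate block, marker levels as covariates and each sample left out in turn were alternatives. The samples are separate pools of animals, and none was a repeat of another, since their counts differed far more than sampling would give (chi-square of 211 or more per degree of freedom). Replicate numbers were not taken as pairs, since same-numbered samples did not deviate together (correlations of -0.19 to 0.08). In the smallest library, 1 CPM is 61.5 counts. The floor of 3 counts covers counting error only.

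Exon lengths and exon sequences are from GENCODE M21 and promoters from RefSeq, in which all 3 members were matched. RPKM is CPM per kilobase of the union of annotated exons of M21, not of the release used for counting, so lengths may differ.

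The members and the lists were chosen with earlier results of these data known. The rule for other genes named took the 5 nearest to each member by profile, and from each list the called genes with the smallest adjusted p, at most 3 in each direction in Cnp-Cre Jab1fl/fl against WT and at most 2 in the other comparisons. Gadd45gip1, Map3k4 and Pcna, which were not called, were named as partners of the family after their values had been seen, as were the list genes called by DESeq2 alone. One gene that this rule named is not reported here.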

Additional observations from a re-analysis of the deposited data

How the results depend on the processing

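Against WT, the members kept their sign under all 17 alternatives of each comparison. In Cnp-Cre Jab1fl/fl, Gadd45b kept its call throughout, with log2 fold changes of 3.04 to 4.91, and Gadd45a gained one with DESeq2 (1.66) and with a mean of at least 10 CPM (1.75). In double mutants, Gadd45a gained a call with DESeq2 (1.88). There Gadd45b ranged from 3.59 to 4.24 over the fits that left out 1 sample, of which 5 of 8 lost the call. The replicate block lost it too (3.66, edgeR adjusted p = 0.212), in a fit that called 1 gene in all, while in Cnp-Cre Jab1fl/fl the replicate block kept it (3.04, edgeR adjusted p = 0.0265). In the block fits only numbers present in both genotypes inform the difference. These were 2 pairs for Cnp-Cre Jab1fl/fl against WT and 3 pairs for each of the other comparisons. A call kept or lost there rests on those few pairs and not on all 8 samples.

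Between the mutant genotypes signs turned, without a call. Gadd45a was at -0.25 with the replicate block and at -0.21 to 0.53 over the fits that left out 1 sample. Gadd45b was at -0.12 with the microglial covariate, at -0.42 with the oligodendrocyte covariate and at -0.24 to 0.34 without 1 sample. Gadd45g was at -0.40 to 0.0026 without 1 sample. The cause was not tested.

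Of 54 counts of called genes in the lists, 10 moved by over 1.5 times with DESeq2 and 6 with all 12 samples in one fit. Genes called in Cnp-Cre Jab1fl/fl against WT numbered 919 higher and 435 lower in edgeR, 1687 and 1002 in DESeq2, and 14 and 1 with the microglial covariate. In double mutants they numbered 31 and 3 in edgeR, 663 and 199 in DESeq2, and 202 and 72 without double mutant 1. Levels per length moved by less than 1 SD with the longest transcript or RLE factors. Chosen after seeing the data, leaving out the highest sample gave lower bounds over WT of 371 and 833 for Trib3 and of 78.9 and 105 for Ccl2 in Cnp-Cre Jab1fl/fl and double mutants.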
